A study of Mus musculus with 16 samples.

Results

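Astrocytes clear the glutamate that neurons release. They take it up through the transporters encoded by *Slc1a2* (GLT-1) and *Slc1a3* (GLAST), convert it to glutamine with glutamine synthetase (*Glul*), and return the glutamine to neurons through carriers such as *Slc38a3*. Some of the glutamate is instead converted to alpha-ketoglutarate, by glutamate dehydrogenase (*Glud1*) or by the cytosolic and mitochondrial aspartate aminotransferases (*Got1* and *Got2*), and astrocytes sense glutamate through the metabotropic receptors encoded by *Grm3* and *Grm5*. These 9 genes were chosen by symbol, with earlier results of these data known, and all 9 are among the 16707 genes of the deposited log2 CPM table.

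Primary astrocytes were isolated from the brains of C57/BL6J wild type (WT) and *Nlrx1*-/- pups at postnatal day 6 by positive selection with ACSA-2 beads, which bind an astrocyte surface antigen. The labels and methods give this age and water as vehicle, whereas other text of the study gives a younger age and a buffered saline. NLRX1 is a mitochondrial member of the NOD-like receptor family that restrains inflammatory signalling, and the question was how its loss changes the astrocyte response to an inflammatory stimulus. Cells of each replicate number were divided between vehicle (H2O) and 500 ng/mL lipopolysaccharide (LPS, from the outer membrane of bacteria) plus 10 ng/mL of the cytokine IFNγ, for 24 h. This gave 4 litters of each genotype, 16 poly-A libraries and 4 conditions: WT vehicle, WT LPS+IFNγ, *Nlrx1*-/- vehicle and *Nlrx1*-/- LPS+IFNγ. All cultures were grown without serum and with heparin-binding EGF. The labels do not say which part of *Nlrx1* was removed, and the pups carried the mutation, so it was present in the cells before culture.

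The libraries held 27259420 to 43752903 assigned reads (median 35554625). *Nlrx1* was at 4.44, 4.13, 4.11 and 4.21 log2 CPM in WT vehicle litters 1 to 4 and at 4.08, 4.09, 4.12 and 4.19 in WT LPS+IFNγ. It was at 2.24, 2.96, 1.84 and 2.85 in *Nlrx1*-/- vehicle and at 2.19, 2.09, 1.09 and 2.23 in *Nlrx1*-/- LPS+IFNγ. Every *Nlrx1*-/- library was below every WT library, with reads still assigned to the gene. All 7 astrocyte markers were in the table, and so were all 6 markers of oligodendrocyte precursors, among which *Olig1* reached 2813 CPM. Of 10 microglial markers 3 were in the table, and the other 7, *Aif1* and *Cx3cr1* among them, had at most 20 reads in any library. None of the 3 endothelial markers was in the table.

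*Nlrx1*-/- litters 2 and 4 stood apart from the rest. *Gfap*, the astrocyte intermediate filament, was at 165 and 326 CPM in their vehicle libraries, against 728 and 1398 CPM in *Nlrx1*-/- litters 1 and 3 and 831 to 2592 CPM in WT vehicle. *Aqp4*, *Gja1*, *S100b* and *Aldoc* were also lower in their vehicle libraries than in those of litters 1 and 3, and *Sox9* overlapped. *Aldh1l1* did not follow, at 815 and 866 CPM against 867 and 769 CPM in litters 1 and 3 and 674 to 805 CPM in WT vehicle. The summed astrocyte markers were 2140 to 4604 CPM in *Nlrx1*-/- vehicle and 3544 to 6836 CPM in WT vehicle, and with LPS+IFNγ they were 2284 to 3699 CPM and 3168 to 5306 CPM. The summed oligodendrocyte markers were 245 to 801 CPM in *Nlrx1*-/- vehicle and 586 to 936 CPM in WT vehicle, and with LPS+IFNγ they were 194 to 445 CPM and 366 to 732 CPM. The summed oligodendrocyte precursor markers were 2659 to 3755 CPM in *Nlrx1*-/- vehicle and 2524 to 3315 CPM in WT vehicle. With LPS+IFNγ they were 2153 to 2846 CPM and 2120 to 2980 CPM. The summed neuronal markers ran from 830 to 1180 CPM over all conditions, mostly from *Map2*. In these bulk samples, fewer cells of a type and less RNA per cell cannot be told apart. The part of these differences in the results below was not tested, so the main genotype differences are given with and without *Nlrx1*-/- litters 2 and 4.

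**Figure D1:**
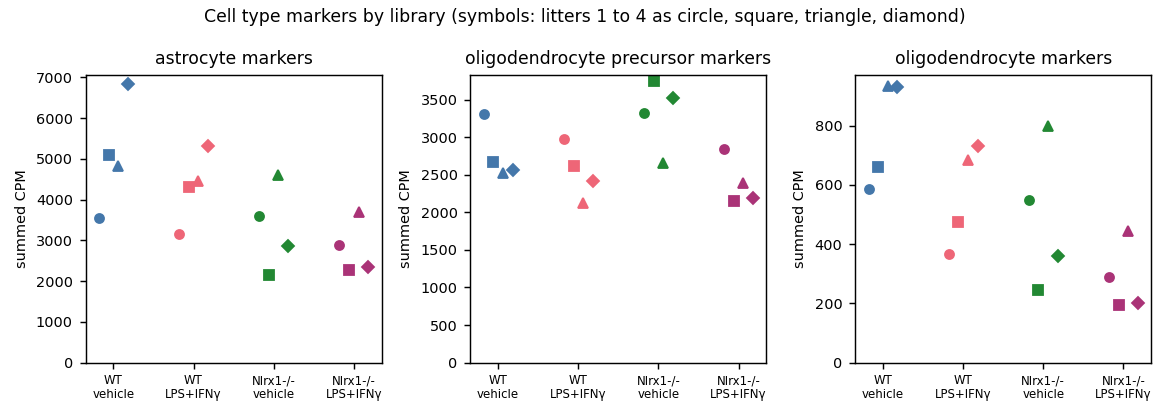
Summed CPM of the astrocyte, oligodendrocyte precursor and oligodendrocyte markers in each of the 16 libraries, by condition, with the litter shown by the symbol. Litters 2 (square) and 4 (diamond) of *Nlrx1*-/- are the lowest of their genotype for the astrocyte and oligodendrocyte markers in both treatments.

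The promoters of the 9 genes were searched for motifs of factors activated by LPS, IFNγ or amino acid stress, and 5 held a match. Shown are *Slc1a3* and *Got1*, which held the only matches to the gamma-activated site and to the C/EBP-ATF motif, and *Glul*, the gene whose litter responses did not overlap between genotypes. Each is the 250 bases before the canonical start in GENCODE M39 on GRCm39, read 5′ to 3′ on the gene's strand, with the matches in capitals. The motifs searched on both strands were TTCNNNGAA (the gamma-activated site), GGG and CC separated by any 5 bases (like the κB site bound by NF-κB), GAAA repeated after any 2 bases (like the interferon-stimulated response element) and TGATGNAA (like the C/EBP-ATF response element).
*Slc1a3* (chr15:8740277-8740526, minus strand): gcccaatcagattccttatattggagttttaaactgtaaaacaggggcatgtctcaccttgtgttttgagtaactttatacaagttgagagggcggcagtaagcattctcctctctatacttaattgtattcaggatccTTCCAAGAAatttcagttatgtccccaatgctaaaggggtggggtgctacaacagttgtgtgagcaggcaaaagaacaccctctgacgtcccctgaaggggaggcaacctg
*Glul* (chr1:153776073-153776322, plus strand): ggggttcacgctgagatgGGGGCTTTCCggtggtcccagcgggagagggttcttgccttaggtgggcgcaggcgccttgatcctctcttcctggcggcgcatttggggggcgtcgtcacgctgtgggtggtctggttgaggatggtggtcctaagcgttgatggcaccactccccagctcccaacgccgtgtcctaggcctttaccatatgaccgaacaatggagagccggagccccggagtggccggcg
*Got1* (chr19:43513070-43513319, minus strand): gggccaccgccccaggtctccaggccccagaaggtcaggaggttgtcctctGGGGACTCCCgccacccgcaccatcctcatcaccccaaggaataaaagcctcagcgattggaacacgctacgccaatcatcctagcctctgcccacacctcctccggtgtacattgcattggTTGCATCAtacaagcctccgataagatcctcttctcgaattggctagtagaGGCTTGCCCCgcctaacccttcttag

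The gamma-activated site was matched in 1 of the 9 promoters (*Slc1a3*) and in 7.7% of 21751 promoters of the same length. The κB-like motif was matched in 4 of 9 (*Glul*, *Glud1*, *Got1* and *Grm3*) and in 47.8% of all promoters. The C/EBP-ATF motif was matched in 1 of 9 (*Got1*) and in 3.39% of all promoters, and the interferon-stimulated motif in 0 of 9 and 3.32%. A match is a run of letters and not a measured binding site.

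Per transcript length, *Slc1a3* was by far the most abundant of the 9 mRNAs in WT vehicle, at 1181 ± 43.7 TPM (SD, n = 4). *Glul* (613 ± 93.7 TPM) and *Glud1* (579 ± 65.9 TPM) followed, and their ranges overlapped. *Got2* was at 132 ± 10.6 TPM, *Slc1a2* at 100.4 ± 18.5 TPM and *Slc38a3* at 92.6 ± 7.06 TPM, and the range of *Slc1a2* overlapped those of both neighbours. *Grm5* (19.9 ± 8.37 TPM), *Got1* (18.9 ± 1.40 TPM) and *Grm3* (17.0 ± 2.21 TPM) were lowest and overlapped one another. The *Grm5* TPM is a lower limit, since the transcripts that could be paired with its symbol held 53.9% to 73.5% of its deposited level, against 95.1% to 102% for the other genes. With LPS+IFNγ in *Nlrx1*-/-, *Got1* (61.9 ± 9.29 TPM) had a higher mean TPM than *Slc1a2* (42.4 ± 19.3 TPM), with overlapping ranges, whereas in WT vehicle the range of *Slc1a2* lay wholly above that of *Got1*.

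**Figure D2:**
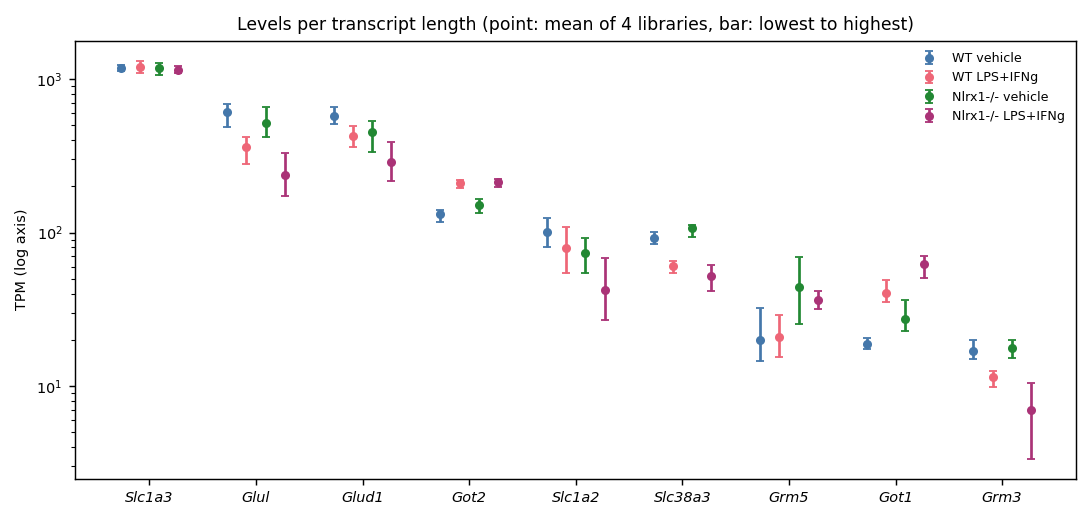
Level of each gene in TPM (log axis) in the 4 conditions, with points for the mean of 4 libraries and bars from the lowest to the highest library. *Slc1a3* stays between 1150 and 1198 TPM on average in the 4 conditions, while *Glul*, *Glud1*, *Slc1a2* and *Slc38a3* have lower means and *Got1* and *Got2* higher means with LPS+IFNγ than with vehicle.

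LPS+IFNγ lowered the mRNAs of glutamine synthesis and release and raised both aspartate aminotransferases in both genotypes. In WT, *Got1*, *Got2* and *Slc1a3* rose and *Glul*, *Slc38a3* and *Glud1* fell, which is 6 of the 9 genes, where 46.7% of all genes were called. In *Nlrx1*-/-, the same 6 genes were called in the same directions, and *Slc1a2* and *Grm3* fell as well, which is 8 of 9, where 52.1% of all genes were called. Calls are at an adjusted p under 0.05 from limma on log2 CPM, with litter as a block and Benjamini-Hochberg adjustment over all 16707 genes. The median response over the 9 genes was -0.14 log2 in WT and -0.49 in *Nlrx1*-/-, against -0.02 over all genes in both. When the CPM were rescaled without TMM factors, the median of all genes was -0.18 in WT and -0.19 in *Nlrx1*-/-, so responses are read relative to a centre that depends on scaling.

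**Figure D3:**
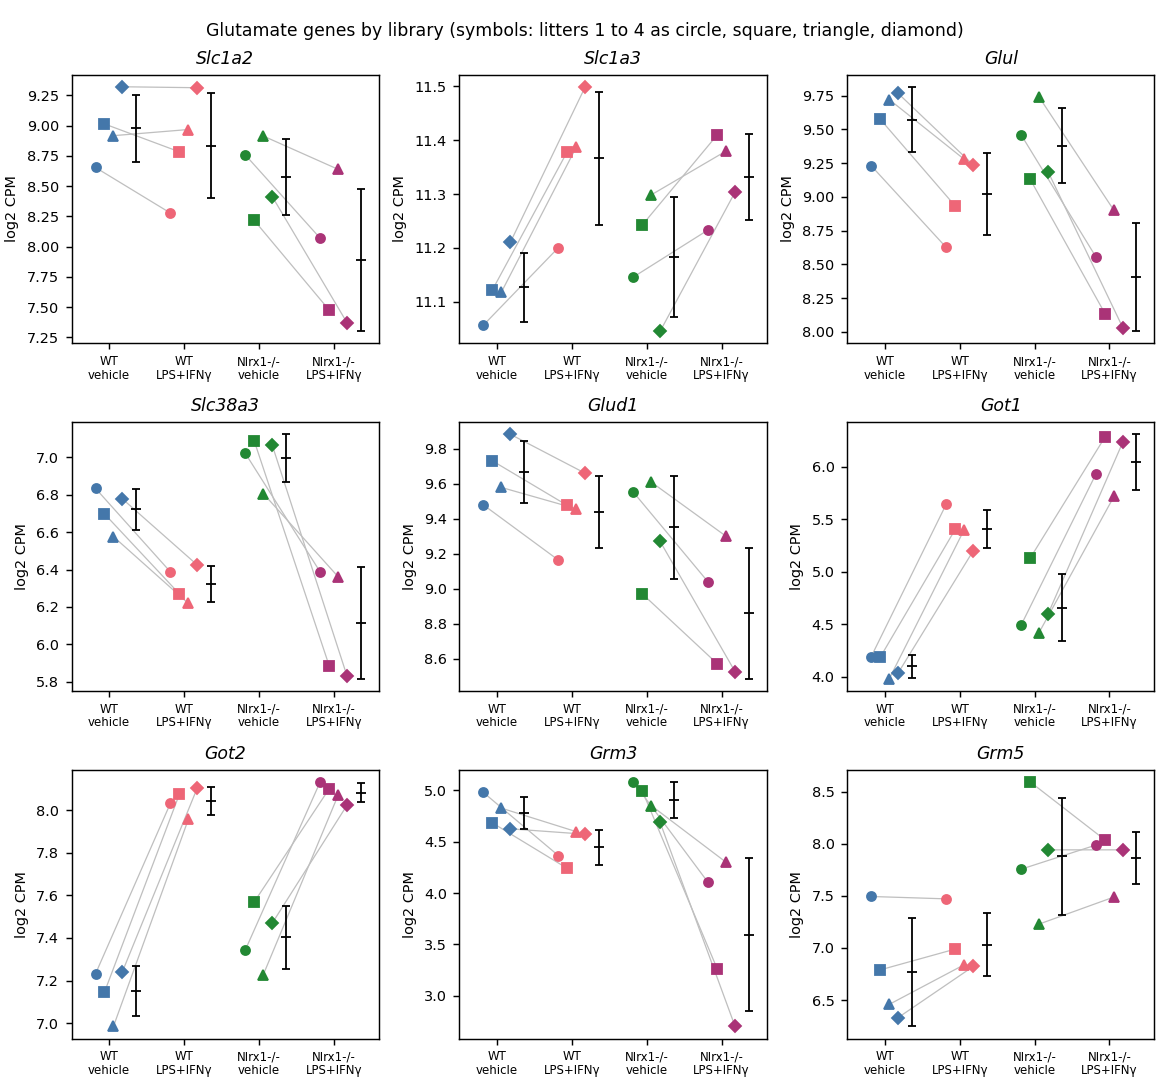
Level of each gene in log2 CPM in the 16 libraries, with lines joining the vehicle and LPS+IFNγ libraries of a litter and black bars for the mean ± SD of 4 litters. *Glul*, *Slc38a3* and *Glud1* fall and *Got1* and *Got2* rise in all 8 litters, and the *Got1* points of *Nlrx1*-/- lie above those of WT within each treatment.

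Of the uptake transporters, *Slc1a2* was the more variable. Its log2 CPM was 8.65, 9.01, 8.92 and 9.32 in WT vehicle litters 1 to 4 and 8.28, 8.78, 8.97 and 9.31 in the same litters with LPS+IFNγ. In *Nlrx1*-/- it was 8.76, 8.22, 8.91 and 8.41 with vehicle and 8.07, 7.48, 8.64 and 7.37 with LPS+IFNγ. WT litters 3 and 4 hardly moved, while all 4 *Nlrx1*-/- litters were lower with LPS+IFNγ, least so litter 3. The response was -0.14 log2 in WT (SE 0.10, limma adjusted p = 0.277), but it was called under quantile normalization (-0.33, adjusted p = 0.024) and without TMM factors (-0.31, 0.0325). *Slc1a2* fell by 37.9% in *Nlrx1*-/- (log2 -0.69, SE 0.10, adjusted p = 0.000136). Without *Nlrx1*-/- litters 2 and 4 the *Nlrx1*-/- response was -0.48 (limma adjusted p = 0.00241). Of the *Slc1a2* reads, the longest transcript (NM_001077514.4) took 55.9% ± 2.58 in WT with vehicle and 61.0% ± 7.58 with LPS+IFNγ, and 67.8% ± 10.4 and 63.9% ± 6.57 in *Nlrx1*-/- (SD, n = 4), with overlapping ranges.

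*Slc1a3* was between 11.06 and 11.21 log2 CPM in WT with vehicle and between 11.20 and 11.50 with LPS+IFNγ, and in *Nlrx1*-/- between 11.05 and 11.30 and between 11.23 and 11.41. Its response was 0.24 log2 in WT (SE 0.05, limma adjusted p = 0.0023) and 0.15 in *Nlrx1*-/- (SE 0.05, limma adjusted p = 0.0287), higher in 8 of 8 litters on this scale. The direction reversed under quantile normalization (-0.20 in WT and -0.36 in *Nlrx1*-/-). Without TMM factors the WT call was lost (0.07, limma adjusted p = 0.254) and the *Nlrx1*-/- direction reversed (-0.03). The call in *Nlrx1*-/- was lost without litter 2 (limma adjusted p = 0.0668), litter 4 (0.106) or both (0.08 log2, 0.273). Its TPM was 1181 ± 43.7 and 1198 ± 92.6 in WT and 1177 ± 90.3 and 1150 ± 60.2 in *Nlrx1*-/-, with vehicle and LPS+IFNγ (SD, n = 4), and these ranges overlap.

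*Glul* encodes glutamine synthetase, the enzyme that makes glutamine from glutamate and ammonia. In WT it was at 9.23, 9.57, 9.72 and 9.77 log2 CPM with vehicle and 8.63, 8.93, 9.28 and 9.24 with LPS+IFNγ. The *Nlrx1*-/- litters were at 9.46, 9.13, 9.74 and 9.19 with vehicle and 8.55, 8.14, 8.90 and 8.03 with LPS+IFNγ. All 8 litters were lower with LPS+IFNγ, and the smallest fall in *Nlrx1*-/- (-0.84 in litter 3) exceeded the largest in WT (-0.64 in litter 2). *Glul* fell by 31.9% in WT (log2 -0.55, SE 0.06, limma adjusted p = 7.91e-06) and fell by 49.1% in *Nlrx1*-/- (log2 -0.98, SE 0.06, limma adjusted p = 5.16e-08). Over all genes, the litter responses of *Nlrx1*-/- lay wholly below those of WT for 5.25%.

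*Slc38a3* encodes the SNAT3 carrier, through which astrocytes release glutamine. In WT it went from 6.83, 6.70, 6.58 and 6.78 log2 CPM with vehicle to 6.39, 6.27, 6.22 and 6.42 with LPS+IFNγ. The *Nlrx1*-/- litters went from 7.02, 7.09, 6.81 and 7.06 to 6.39, 5.89, 6.36 and 5.83. The vehicle and LPS+IFNγ libraries did not overlap in either genotype, but the share of all genes separated in this way was not counted. *Nlrx1*-/- litters 2 and 4 fell furthest, by 1.20 and 1.24 on the log2 scale. *Slc38a3* fell by 24.0% in WT (log2 -0.40, SE 0.11, limma adjusted p = 0.011) and fell by 45.6% in *Nlrx1*-/- (log2 -0.88, SE 0.11, limma adjusted p = 3.71e-05), and the latter response was -0.54 (limma adjusted p = 3.43e-05) without litters 2 and 4.

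*Glud1* oxidises glutamate to alpha-ketoglutarate in mitochondria, and is a gene the study itself displayed from these libraries, so its direction here is not independent evidence. It was at 9.48, 9.73, 9.58 and 9.88 log2 CPM in WT vehicle and 9.17, 9.48, 9.46 and 9.66 in WT LPS+IFNγ. In *Nlrx1*-/- it was at 9.55, 8.97, 9.61 and 9.27 with vehicle and 9.04, 8.57, 9.30 and 8.53 with LPS+IFNγ. It was lower with LPS+IFNγ in all 8 litters, although the groups overlapped in both genotypes. *Glud1* fell by 14.6% in WT (log2 -0.23, SE 0.06, limma adjusted p = 0.0117) and fell by 28.9% in *Nlrx1*-/- (log2 -0.49, SE 0.06, limma adjusted p = 5.23e-05). The WT call was lost without WT litter 1 (limma adjusted p = 0.0584) or WT litter 2 (0.0506).

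The aminotransferases moved the other way. *Got1* was at 4.19, 4.19, 3.98 and 4.04 log2 CPM in WT vehicle and 5.64, 5.40, 5.40 and 5.20 in WT LPS+IFNγ. In *Nlrx1*-/- it was at 4.49, 5.13, 4.42 and 4.60 with vehicle and 5.93, 6.29, 5.72 and 6.24 with LPS+IFNγ. Treated and vehicle libraries did not overlap in either genotype. *Got1* rose 2.48-fold in WT (log2 1.31, SE 0.08, limma adjusted p = 1.52e-07) and 2.61-fold in *Nlrx1*-/- (log2 1.38, SE 0.08, limma adjusted p = 8.51e-08). *Got2* ran from 6.99 to 7.24 log2 CPM in WT with vehicle and 7.96 to 8.11 with LPS+IFNγ, and in *Nlrx1*-/- from 7.23 to 7.57 and 8.02 to 8.13. It rose 1.85-fold in WT (log2 0.89, SE 0.06, limma adjusted p = 1.94e-07) and 1.60-fold in *Nlrx1*-/- (log2 0.68, SE 0.06, limma adjusted p = 1.78e-06), again without overlap. The share of all genes whose treated and vehicle libraries separate as those of *Got1* and *Got2* do was not counted.

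*Grm3* encodes a receptor of the group that lowers cAMP. It was at 4.98, 4.68, 4.83 and 4.63 log2 CPM in WT vehicle and 4.36, 4.24, 4.60 and 4.57 in WT LPS+IFNγ. The *Nlrx1*-/- litters were at 5.08, 5.00, 4.85 and 4.69 with vehicle and 4.10, 3.26, 4.30 and 2.70 with LPS+IFNγ. The lowest values of all 16 libraries were those of *Nlrx1*-/- litters 4 and 2 with LPS+IFNγ. The response was -0.34 log2 in WT (SE 0.19, limma adjusted p = 0.17), and *Grm3* fell by 59.8% in *Nlrx1*-/- (log2 -1.31, SE 0.19, limma adjusted p = 0.000117), or -0.77 on the log2 scale (limma adjusted p = 0.000723) without litters 2 and 4. In the fit without those litters the WT response of *Grm3*, still -0.34, was called as well (limma adjusted p = 0.0114). *Grm5*, a receptor that mobilises calcium, was at 7.49, 6.79, 6.46 and 6.33 log2 CPM in WT vehicle and 7.47, 6.99, 6.84 and 6.82 in WT LPS+IFNγ. Its *Nlrx1*-/- values were 7.76, 8.59, 7.23 and 7.94 with vehicle and 7.99, 8.04, 7.49 and 7.94 with LPS+IFNγ. Its responses were 0.26 in WT (SE 0.12, limma adjusted p = 0.0885) and -0.02 in *Nlrx1*-/- (SE 0.12, limma adjusted p = 0.919), and the latter was 0.16 without *Nlrx1*-/- litter 2. In that fit the WT response of *Grm5*, still 0.26, was called (SE 0.08, limma adjusted p = 0.0152). Without *Nlrx1*-/- litters 2 and 4 it was called too (SE 0.07, limma adjusted p = 0.00548).

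**Figure D4:**
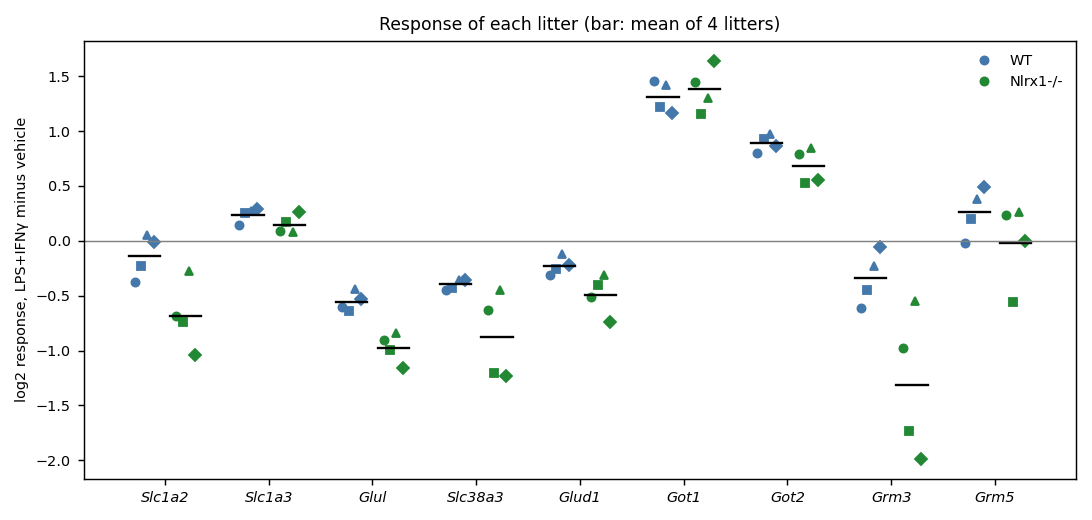
Response of each litter (log2 CPM with LPS+IFNγ minus vehicle) for the 9 genes, WT in blue and *Nlrx1*-/- in green, with litters 1 to 4 as circle, square, triangle and diamond and a bar at the mean. The *Glul* responses of the genotypes do not overlap, and *Nlrx1*-/- litters 2 and 4 are the lowest for *Slc38a3* and *Grm3*.

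Whether the response itself differed between genotypes was tested with the interaction term. By limma 0 of the 9 genes and 0% of all genes were called, with 6 of the 9 and 2786 of all genes (16.7%) at an unadjusted p under 0.05. The differences (*Nlrx1*-/- minus WT, log2) were -0.98 for *Grm3* (SE 0.27, limma adjusted p = 0.169), -0.55 for *Slc1a2* (SE 0.14, 0.167), -0.48 for *Slc38a3* (SE 0.16, 0.184), -0.42 for *Glul* (SE 0.08, 0.164) and -0.26 for *Glud1* (SE 0.09, 0.197). The lowest adjusted p over all genes was also 0.164. For *Grm5*, *Got2*, *Slc1a3* and *Got1* the differences were -0.28 (SE 0.17), -0.21 (SE 0.08), -0.09 (SE 0.07) and 0.07 (SE 0.12). edgeR called 0 genes, whereas DESeq2 called 362, among them *Slc1a2* (adjusted p = 0.0233), *Glul* (0.00398) and *Grm3* (0.0288). Without *Nlrx1*-/- litter 3, limma called *Slc1a2*, *Glul*, *Slc38a3* and *Grm3* (adjusted p = 0.0158 to 0.0257), in a fit that called 822 of all 16707 genes. Without litters 2 and 4 it called none of the 9 (adjusted p for these 4 genes 0.356 to 0.612) and 0 of all genes. Without those 2 litters the difference was -0.14 for *Slc38a3*, -0.43 for *Grm3*, -0.34 for *Slc1a2*, -0.32 for *Glul* and -0.18 for *Glud1*.

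With vehicle, 0 of the 9 genes were called between genotypes by limma, where 0.00599% of all genes were, and 4 of the 9 had an unadjusted p under 0.05, as did 21.1% of all genes. edgeR and limma-voom on the Salmon counts called 0 of the 9 as well. DESeq2 called *Got1* (adjusted p = 0.0193) and *Grm5* (0.00418), and 701 of 16062 genes in all. *Grm5* was 1.11 log2 higher in *Nlrx1*-/- (SE 0.27, limma adjusted p = 0.0928) and *Got1* 0.56 higher (SE 0.15, 0.101). All 4 *Nlrx1*-/- vehicle libraries had more *Got1* than all 4 WT vehicle libraries, an order found for 6.02% of all genes. *Got2* was 0.25 higher (SE 0.07, limma adjusted p = 0.11) and *Slc38a3* 0.27 higher (SE 0.12, 0.198). *Slc1a2* (-0.40, SE 0.26), *Glud1* (-0.32, SE 0.17), *Glul* (-0.19, SE 0.20), *Grm3* (0.13, SE 0.25) and *Slc1a3* (0.06, SE 0.08) had limma adjusted p values of 0.298 or above. Without *Nlrx1*-/- litter 3, *Grm5*, *Got1* and *Got2* were called (limma adjusted p = 0.00876, 0.0176 and 0.0215), and without WT litter 1 *Grm5* was (0.0277). Of all 16707 genes, these fits called 1618 and 494. Without *Nlrx1*-/- litters 2 and 4 the differences were 0.72 for *Grm5* and 0.36 for *Got1* (limma adjusted p = 0.655 for both), 0.13 for *Got2*, 0.19 for *Slc38a3*, -0.14 for *Slc1a2*, -0.09 for *Glud1* and 0.03 for *Glul*.

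With LPS+IFNγ, *Slc1a2*, *Glud1* and *Grm3* were lower and *Got1* higher in *Nlrx1*-/- than in WT, which is 4 of 9, where 8.8% of all genes were called. *Slc1a2* was 48.1% below WT (log2 -0.95, SE 0.26, limma adjusted p = 0.0412), *Grm3* 44.6% below (log2 -0.85, SE 0.25, 0.0466) and *Glud1* 33.1% below (log2 -0.58, SE 0.17, 0.0479). *Got1* was 1.55-fold WT (log2 0.63, SE 0.15, limma adjusted p = 0.0349). *Glul* (log2 -0.61, SE 0.20, limma adjusted p = 0.0574) and *Grm5* (log2 0.83, SE 0.27, 0.0583) missed the threshold. Both were called when limma also estimated the correlation of the libraries of a litter (adjusted p = 0.0319 and 0.0373) and by DESeq2 (0.0239 and 0.0243), each of which called 6 of the 9. Over all genes DESeq2 called more as well, 2487 of 16062, against 1471 of 16707 in the main fit. Of 66 other glutamate and glutamine genes, described below, the fit with the correlation called 14 higher and 8 lower, against 14 and 4. edgeR and limma-voom on the Salmon counts called only *Got1* of the 9, and 845 and 502 of 16062 genes. Without the variance trend, and on libraries of that treatment alone, limma called 0 of the 9, and 2 and 1 of all genes. *Slc38a3* (-0.21), *Got2* (0.04) and *Slc1a3* (-0.03) had adjusted p values of 0.239 or above. The libraries did not overlap for *Got1* and *Grm5*, both higher in *Nlrx1*-/-, an order found for 7.09% of all genes.

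These 4 calls lay close to the threshold. All were lost without *Nlrx1*-/- litter 2 (limma adjusted p = 0.0532 to 0.137), *Nlrx1*-/- litter 4 (0.129 to 0.17) or WT litter 2, 3 or 4 (0.112 to 0.153), fits in which 1 or 2 of all 16707 genes were called. The differences themselves stayed at -0.77 to -0.96 for *Slc1a2*, -0.47 to -0.57 for *Glud1*, 0.55 to 0.63 for *Got1* and -0.55 to -0.92 for *Grm3* in these fits. Without *Nlrx1*-/- litters 2 and 4, *Slc1a2* was -0.48 (limma adjusted p = 0.443), *Glud1* -0.27 (0.436), *Grm3* -0.24 (0.468), *Got1* 0.41 (0.25), *Glul* -0.29 (0.538) and *Grm5* 0.71 (0.354). In the main fit of the same comparison 4 of the 7 astrocyte markers were called lower in *Nlrx1*-/-, where 4.41% of all genes were. They were *Aqp4* (log2 -1.33), *Gja1* (-1.29), *S100b* (-2.22) and *Aldoc* (-0.63), with limma adjusted p values of 0.0349 to 0.0402. *Gfap* (-1.01), *Sox9* (-0.41) and *Aldh1l1* (-0.06) were not called. The part of these marker differences in the lower *Slc1a2*, *Glud1* and *Grm3* was not tested.

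Among 66 other measured genes of glutamate and glutamine handling, in 7 lists, 17 rose and 24 fell in WT, and 25 rose and 23 fell in *Nlrx1*-/-. Over all genes, 24.9% rose and 21.9% fell in WT, and 26.6% and 25.5% in *Nlrx1*-/-. Of 7 other plasma membrane carriers, 4 rose and 1 fell in WT and 5 rose and 2 fell in *Nlrx1*-/-. *Slc7a11*, the cystine-glutamate exchanger, rose by 1.69 log2 in WT (SE 0.21) and 2.46 in *Nlrx1*-/- (SE 0.21), and *Slc1a6* (EAAT4) had -0.99 and -1.37, both called. Of 4 glutamine carriers, 2 fell in both genotypes, *Slc38a1* by 0.79 and 0.73, and 2 rose in *Nlrx1*-/-, *Slc38a2* by 0.41. Of 5 vesicular and mitochondrial carriers, 3 rose in both genotypes, and 1 fell in WT and 2 in *Nlrx1*-/-, with the mitochondrial glutamate carrier *Slc25a22* at 1.36 and 1.63 log2, while *Slc25a18* fell by 0.37 in *Nlrx1*-/-. The other fall, named after its values were seen, was that of the vesicular carrier *Slc17a8* (-1.44 and -2.12 log2), at a mean of 0.86 CPM.

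Of 20 enzymes, 5 rose and 5 fell in WT, and 8 rose and 4 fell in *Nlrx1*-/-. *Gad1*, which makes GABA from glutamate, fell by 1.61 log2 in WT and 1.96 in *Nlrx1*-/-. Its paralog *Gad2* rose by 1.89 in WT from under 1 CPM, and asparagine synthetase (*Asns*), which consumes glutamine, rose by 2.21 in *Nlrx1*-/-. Of 7 other metabotropic receptors and Homer scaffolds, 4 fell in each genotype, *Grm4* at -2.65 and -2.52 log2. Of 16 ionotropic subunits, 3 rose and 7 fell in WT and 3 rose and 6 fell in *Nlrx1*-/-. The AMPA receptor subunit *Gria1* rose by 2.80 and 2.13, *Grin2d* fell by 1.19 in WT and *Gria4* by 1.12 in *Nlrx1*-/-. Of 7 partners and regulators of uptake, *Arl6ip5*, which binds the neuronal glutamate transporter, rose by 0.64 and 0.42. The sodium pump subunit *Atp1b2* fell furthest of that list in WT, by 0.70. All values here are log2 differences with a limma adjusted p under 0.05.

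**Figure D5:**
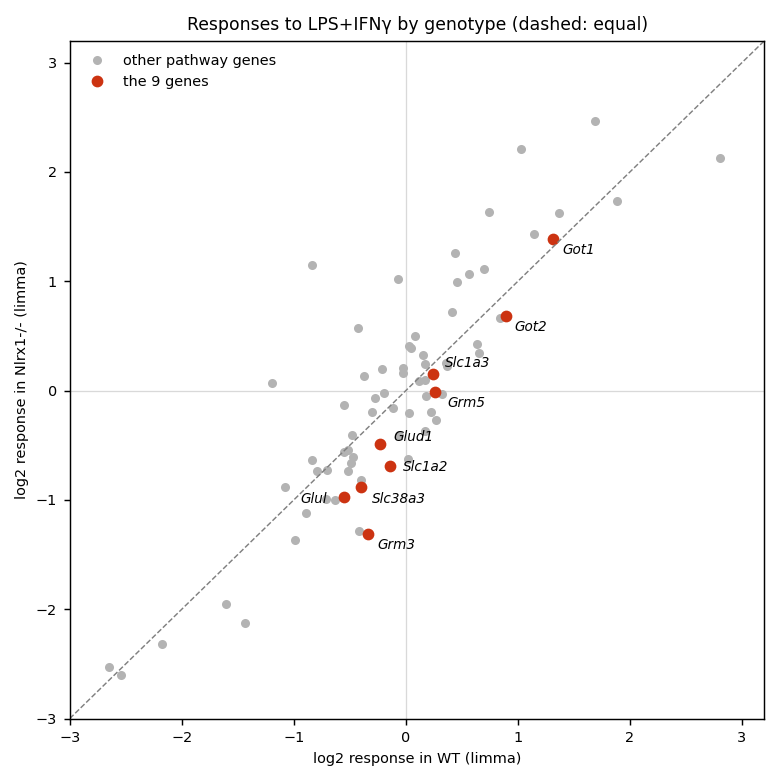
Response to LPS+IFNγ (log2, limma) in WT against that in *Nlrx1*-/- for the 9 genes (red) and the 66 other pathway genes (grey), with the dashed line where both are equal. *Grm3*, *Slc1a2* and *Slc38a3* lie farthest below the line among the 9 genes, and *Got1* lies nearest to it.

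Between genotypes with LPS+IFNγ, 14 of the 66 genes were higher in *Nlrx1*-/- and 4 lower, where 4.4% and 4.41% of all genes were. Carriers of neutral amino acids and glutamine were among the higher ones, with log2 differences of 1.71 for *Slc7a5* (SE 0.39, limma adjusted p = 0.0349), 1.23 for *Slc1a5*, 0.83 for *Slc38a2* and 0.50 for *Slc1a4*. So were *Asns* (1.87, SE 0.45, limma adjusted p = 0.0349), the branched-chain aminotransferase *Bcat1* (1.18), and *Aldh18a1* (1.14), which starts proline synthesis from glutamate. The glutathione synthesis genes *Gclm* (0.44) and *Gclc* (0.40), whose products join glutamate to cysteine, were higher too. The receptor subunits *Grin2b* (1.12) and *Gria3* (0.40) and the transcriptional regulators of *Slc1a2* known as *Mtdh* (0.36) and *Yy1* (0.23) were also higher. Among the lower genes were *Aldh5a1* (-0.65), *Abat* (-0.47) and *Aldh4a1* (-0.28), of which *Abat* and *Aldh5a1* break down GABA. By limma 0 of the 66 genes were called with vehicle (19 at an unadjusted p under 0.05, where 21.1% of all genes were) and 0 in the response difference (26, where 16.7% were), and edgeR also called 0 in both, whereas DESeq2 called 5 higher and 1 lower with vehicle and 1 higher and 2 lower in the response difference. With LPS+IFNγ, leaving out *Nlrx1*-/- litter 2 or 4, or both, or WT litter 2, 3 or 4 gave 0 calls by limma among the 66 genes, and 1 to 3 among all genes.

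Over the 8 litter responses, the genes most like *Slc1a2* among 13709 genes were *Plekhf1*, *Amph* and *Cirbp*, with root mean square differences of 0.10, 0.12 and 0.12 log2. Those most like *Slc1a3* were *Scamp2*, *Gnai3* and *Slc35a4*, at 0.05, 0.06 and 0.06 log2. The mean responses of *Plekhf1* were -0.15 in WT and -0.58 in *Nlrx1*-/-, beside -0.14 and -0.69 for *Slc1a2*.

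The genes lie on GRCm39 (GENCODE M39) at chr2:102488574-102621129 (*Slc1a2*, plus strand), chr15:8663604-8741595 (*Slc1a3*, minus), chr1:153775690-153785469 (*Glul*, plus), chr9:107527815-107547018 (*Slc38a3*, minus), chr14:34032583-34067642 (*Glud1*, plus), chr19:43488188-43513674 (*Got1*, minus), chr8:96590760-96615190 (*Got2*, minus), chr5:9534069-9776088 (*Grm3*, minus) and chr7:87233376-87784594 (*Grm5*, plus). Exons of *Shld2* and the pseudogene *Gm3219* lie within the span of *Glud1*, and those of *Teddm2* within the span of *Glul*. The libraries did not keep strand, so reads from opposite strands where exons overlap cannot be told apart.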

How the data were processed

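Poly-A RNA of 16 astrocyte libraries was sequenced as paired-end, non-stranded reads, and conditions and litters were taken from the labels. The authors quantified transcripts with Salmon 1.7.0 against GRCm39 and deposited the expected count, TPM and effective length of each transcript. The authors also deposited CPM per gene (length-scaled counts, filtered, divided by TMM-adjusted library sizes, and treated here as a signal) and the log2 of these CPM.

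The deposited log2 CPM were tested with limma 3.58.1 (R 4.3.3; lmFit, contrasts.fit, eBayes with trend) on all 16707 genes, adjusted by Benjamini-Hochberg and called at 0.05. Responses and their difference used the study's formula, with litter as a block within genotype. The genotypes were compared within a treatment in a fit with a mean for each of the 4 conditions and no litter terms, since each litter has 1 genotype. This fit does not use the shared litter of the libraries, which an alternative with a within-litter correlation (0.364) does. The log2 table was used because summing Salmon counts needs transcripts paired with symbols, which succeeded for 106430 of 129698. These expected counts, summed and rounded, served edgeR 4.0.16 and DESeq2 1.42.0 as alternatives, and summed TPM served for levels between genes. The limma SE of a gene pools the spread of the litters of both genotypes and is moderated across genes. The WT and *Nlrx1*-/- responses of a gene therefore share an SE, although their spreads can differ. The SD of the litter responses was 0.05 in WT and 0.40 in *Nlrx1*-/- for *Slc38a3*, and 0.25 and 0.66 for *Grm3*. Reads of the 9 genes ran from 217 (*Grm3*) to 107649 (*Slc1a3*) per library.

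The design text states that vehicle and treated wells of a replicate number came from the same mice. Their deviations from the condition means correlated at r = 0.073 to 0.355 across genes. WT and *Nlrx1*-/- share only the number.

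The 9 genes and the lists were chosen with earlier results of these data known. Genes named from a list are, for each response, the called gene with the largest change each way at a mean of at least 1 CPM, and any gene called between genotypes, apart from some that are counted but not reported here by name. Promoters were read from GRCm39. The limma, edgeR and DESeq2 fits of the response difference were run on simulated counts, and the genotype comparisons within a treatment were not. Other scalings, filters, tools, designs and each litter left out were tried. Added after seeing the data were CPM without TMM factors and leaving out *Nlrx1*-/- litters 2 and 4. Sums used pandas 2.3.3 under Python 3.11.15, and plots used matplotlib 3.10.9.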

Additional observations from a re-analysis of the deposited data

How the results depend on the processing

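The count of the 9 genes called was 6 for the WT response and 8 for the *Nlrx1*-/- response, and leaving out each litter in turn gave 5 to 7 and 7 to 8. For the response difference, with 0 called, it gave 0 to 4, with vehicle, with 0 called, 0 to 3, and with LPS+IFNγ, with 4 called, 0 to 6. The 4 and the 3 came without *Nlrx1*-/- litter 3, in fits that called 822 and 1618 of all 16707 genes. So did the 6, in a fit that called 23 of the 66 other pathway genes higher and 15 lower, against 14 and 4 in the main fit. For the response difference DESeq2 called 3, and with vehicle it called 2, where it called 362 and 701 of 16062 genes. With LPS+IFNγ, DESeq2 and limma with a within-litter correlation each called 6, adding *Glul* and *Grm5*. edgeR called 1 (also with DESeq2 size factors and without a count filter) and limma-voom 1. By limma 0 were called without the variance trend, on libraries of that treatment alone, at an adjusted p under 0.01, and without *Nlrx1*-/- litters 2 and 4. Of 16062 genes, DESeq2 called 2487 in this comparison, edgeR 845 and limma-voom 502. The within-litter correlation called 14 of the 66 other pathway genes higher and 8 lower, against 14 and 4 in the main fit. These 4 limma settings with 0 of the 9 called 1 to 3 of all 16707 genes, against 1471 in the main fit. With a block on the replicate number, 3 of the 9 genes were called with vehicle, where 591 of all genes were, and 6 with LPS+IFNγ. With LPS+IFNγ that block also called 17 of the 66 other pathway genes higher and 11 lower. WT and *Nlrx1*-/- only share this block as a number (r between -0.089 and 0.18 across genes). Without the litter block 5 and 7 were called for the responses, losing *Glud1* in WT and *Slc1a3* in *Nlrx1*-/-. Of the 66 other pathway genes, 13 rose and 18 fell in WT in that fit, and 20 and 22 in *Nlrx1*-/-. In the main fit these were 17 and 24, and 25 and 23. The cause of these changes was not tested.

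Directions reversed for *Slc1a3* under quantile normalization (WT response -0.20, *Nlrx1*-/- response -0.36) and without TMM factors (*Nlrx1*-/- response -0.0276), and in the genotype difference with LPS+IFNγ without WT litter 4 (-0.09 to 0.0095 over the litters left out). They also reversed for the *Grm5* response in *Nlrx1*-/- without litter 2 (-0.1083 to 0.164 over the litters left out) or litters 2 and 4 (0.2458), for the *Got1* response difference without *Nlrx1*-/- litter 4 (-0.014 to 0.1476) and for *Got2* with LPS+IFNγ under quantile normalization (-0.0004). Without *Nlrx1*-/- litters 2 and 4 they reversed for *Glul* with vehicle (0.0269) and *Slc38a3* with LPS+IFNγ (0.0491). Of these, only the *Slc1a3* responses under quantile normalization were called. Over all genes, quantile normalization moved the WT split from 4154 up and 3656 down to 3132 and 4777, and the *Nlrx1*-/- split from 4448 and 4256 to 3327 and 5208. Each of the 9 genes had at least 217 reads in every library.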
